A study of Mus musculus with 14 samples.

Results

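The Procr+ stem-like cells are a fraction of the hematopoietic stem and progenitor cells (HSPC) of mouse bone marrow, chosen by the transcripts counted in each cell. A cell belonged to the fraction when it held at least 1 unique molecular identifier (UMI, 1 counted RNA molecule) of Procr and at least 1 of Mecom and Mllt3 together. It also had to hold 0 UMIs of Gata1, fewer than 2 of Dntt, and Elane UMIs below 10 per 10000 of the cell's UMIs. Of 14842 HSPC, 671 met these conditions. They came from 218 of 3422 cells of the first wild-type mouse (WT 1), 164 of 2210 of the second (WT 2), 111 of 3602 of the first PyMT mouse (PyMT 1) and 178 of 5608 of the second (PyMT 2). The mouse numbers are names in deposit order and pair nothing across genotypes.

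Hematopoietic stem cells (HSC) sit at the top of blood formation, divide rarely and give rise to progenitors that progressively commit to the myeloid, lymphoid or megakaryocyte-erythroid lineages. Procr encodes the endothelial protein C receptor (EPCR, CD201), a surface protein by which HSC are often sorted. Mecom (EVI1) and Mllt3 (AF9) are nuclear regulators needed to keep cells in the stem cell state. Gata1, Dntt and Elane, whose presence removed a cell, mark megakaryocyte-erythroid, lymphoid and granulocytic commitment.

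The series covers 14 samples of mouse marrow, of which the 4 droplet 3′ RNA libraries of HSPC are used here, 1 mouse each. Both groups are given by genotype alone, as WT mouse and PyMT mouse; PyMT mice carry the middle T oncogene of polyomavirus and develop mammary tumours. The promoter behind the transgene, the age and strain of the mice, their tumour load and the gates of the sort are not named in the labels. The genotype labels were followed, although every title of these 4 libraries begins with PyMT.

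The Procr+ stem-like cells were shallower than the rest. Their median UMI count was 4365 in WT 1, 4654 in WT 2, 4791 in PyMT 1 and 2978 in PyMT 2, against 6808, 6906, 7253 and 4314 in all other HSPC of the same mice. Summed per mouse, the cells gave 1195797, 941094, 615942 and 626649 UMIs. Of the cell barcodes, 93 occurred in 2 libraries or more, and 4 Procr+ stem-like cells carried one of them, none shared with another Procr+ stem-like cell.

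Markers that the rule did not use were then set beside the label. Hlf, a transcription factor of HSC, stood at 246, 273, 136 and 158 CPM (the UMIs of a gene scaled to a common total) in the Procr+ stem-like cells of WT 1, WT 2, PyMT 1 and PyMT 2, and at 80.0, 112, 40.7 and 60.2 CPM in the other HSPC. Meg3, a maternally expressed long non-coding RNA of the imprinted Dlk1 region, stood at 105, 66.9, 143 and 113 CPM against 14.7, 6.35, 22.5 and 19.2 CPM. Sult1a1, a sulfotransferase used as an HSC marker, stood at 51.8, 52.1, 22.7 and 41.5 CPM against 6.02, 6.55, 2.65 and 5.13 CPM. All 3 markers were higher in the Procr+ stem-like cells of every mouse, and this is a description, since these cells were chosen by expression. With every cell thinned to 2000 UMIs, at least 1 of the 3 was found in 50.5%, 54.0%, 34.2% and 37.5% of them. The shares were 19.04%, 22.8%, 13.2% and 16.2% in the other HSPC, and 2.48% to 3.56% in Elane-high cells. Among the other HSPC, cells that met every other condition but held 0 Procr UMIs lay closer, at 31.7%, 31.4%, 25% and 26.8%.

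Other transcripts show how far the label reaches. Cd34, high on short-lived progenitors and low on the most dormant mouse HSC, was present in 74.7% to 85.6% of the Procr+ stem-like cells of a mouse. Cd48, a surface protein absent from long-term HSC, was present in 27.5% to 57.7% of them and in 64.9% to 81.1% of the other HSPC. Slamf1 (CD150), a surface marker of long-term HSC, was detected in 3.37% to 5.49% of them and 1.90% to 5.52% of the other HSPC. In WT 1 its share was lower in the Procr+ stem-like cells, at 5.05% against 5.52%. Thinned to 2000 UMIs per cell, Slamf1 was found in 1.85%, 4.29%, 1.80% and 1.88% of the Procr+ stem-like cells of WT 1, WT 2, PyMT 1 and PyMT 2. In the other HSPC it was found in 1.63%, 1.52%, 0.976% and 0.877%, the lower share in each mouse. The former shares rest on few positive cells, out of 216, 163, 111 and 160. At that depth Cd48 was in 17.8% to 33.3% against 34.03% to 45.2%, and Cd34 in 63.8% to 69.4% against 68.3% to 73.4%. Mpo, a granule enzyme of neutrophil precursors, summed to 1099, 614, 1531 and 844 CPM, below the other HSPC (3241, 1469, 4430 and 3735 CPM) but far from 0. The cells are called here by their rule, Procr+ stem-like.

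Elane itself was admitted up to its limit, and the cells that carried a UMI of it were unevenly spread, at 34.9% and 9.76% of the Procr+ stem-like cells of WT 1 and WT 2 and 67.6% and 30.9% of those of PyMT 1 and PyMT 2. Elane-high cells made up 5.90%, 1.49%, 12.2% and 7.13% of the HSPC of these libraries, so that the order of the 4 mice is the same in both except for WT 1 and PyMT 2. The part that free RNA in the droplets plays in Elane, Mpo, Ctsg and Prtn3 of these cells was not tested. Marker lists of mature cells were also summed. The 8 neutrophil markers in the table summed to 9.20 to 24.4 CPM per mouse, with Mmp8 at 0 in all 4. The 9 monocyte and macrophage markers summed to 60.6 to 120 CPM, and the 4 B cell markers to 54.2 to 94.2 CPM, nearly all of it Cd79b, with Igll1 at 0. The 6 erythroblast markers summed to 147, 125, 229 and 76.6 CPM in WT 1, WT 2, PyMT 1 and PyMT 2, mostly the globin Hbb-bt, above the 57.6, 71.4, 84.8 and 35.8 CPM of the other HSPC in each mouse. Of the 443 to 533 CPM of 4 T and NK cell markers, Nkg7 gave 438 to 526 CPM, while Cd3d had 1 UMI in all 4 mice together. Of 12 stromal and endothelial markers 5 are in the table, and they summed to 102 to 132 CPM, led by Pecam1, which blood stem cells also express.

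The rule rests on few molecules per cell. Of the 671 cells, 540 held exactly 1 Procr UMI, 103 held 2 and 28 held 3 or more. In cells with 1 Procr UMI, Meg3 stood at 83.4, 49.4, 116 and 114 CPM in WT 1, WT 2, PyMT 1 and PyMT 2, and with 2 or more at 181, 159, 271 and 110 CPM, so that it was higher with more Procr in every mouse but PyMT 2. Sult1a1 stood at 26.7, 50.6, 21.6 and 27.0 CPM with 1 Procr UMI and at 142, 59.5, 28.0 and 110 CPM with 2 or more, higher in each mouse. Flt3, the receptor tyrosine kinase of multipotent and lymphoid-primed progenitors, was lower in each, at 146, 198, 124 and 170 CPM against 108, 178, 56.0 and 120 CPM. The values that follow are summed over the 4 mice, whose shares of the cells differ. The 2687 cells that met every other condition but held 0 Procr UMIs, called Procr-negative neighbours below, had 41.6 CPM of Meg3, 16.7 CPM of Sult1a1 and 165 CPM of Flt3. Just outside the other limits, 698 Procr+ cells without Mecom and Mllt3 had 127 CPM of Hlf against 196 CPM in those with 1 such UMI. The former came from 146, 108, 165 and 279 cells of WT 1, WT 2, PyMT 1 and PyMT 2 and the latter from 113, 76, 69 and 118, and Hlf itself was lower in the PyMT mice. Of the others, 26 cells with 1 Gata1 UMI had 108 CPM, 38 cells with 2 Dntt UMIs had 144 CPM against 164 CPM in those with 1, and 14 cells above the Elane limit had 17.6 CPM.

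Cells that qualified by Mecom and by Mllt3 differed. Mecom alone qualified 404 cells, Mllt3 alone 130, and both were present in 137. Cells with an Mllt3 UMI had 221, 125, 184 and 237 CPM of Meg3 in WT 1, WT 2, PyMT 1 and PyMT 2, and cells with Mecom only had 42.3, 25.5, 120 and 59.5 CPM. Sult1a1 followed the same split, at 120, 110, 49.4 and 73.8 CPM against 15.4, 10.9, 7.63 and 27.5 CPM. Cd34 was at 531, 605, 525 and 554 CPM in the cells with Mllt3 and at 890, 790, 712 and 675 CPM in those with Mecom only. In each mouse the Mllt3 cells were thus the higher for Meg3 and Sult1a1 and the lower for Cd34. They made up 39.0% and 45.1% of the Procr+ stem-like cells of the WT mice and 39.6% and 36.0% of those of the PyMT mice.

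Against all other HSPC, 15 genes led the Procr+ stem-like cells when genes with at least 50 CPM in them in every mouse were ranked by the smallest of the 4 log2 ratios. Meg3 led, with log2 ratios of 2.50 to 3.21. Against the Procr-negative neighbours its ratios were smaller, at 1.69, 2.39, 0.80 and 1.13 in WT 1, WT 2, PyMT 1 and PyMT 2. The next were Trim47 (1.63 to 1.73), the MHC class II chain H2-Aa (1.59 to 2.58), its invariant chain Cd74 (1.52 to 2.80) and Gimap5 (1.41 to 1.83), a GTPase that lymphocytes need to survive. Cd74 stood at 185, 186, 177 and 230 CPM against 25.7, 64.1, 37.2 and 65.6 CPM in the other HSPC. The HSC regulators Hlf, Nkx2-3 and Mycn were also among the 15, as were Pdzk1ip1, Ltb, Tnip3, Egr1, Gng11 and Krt18.

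At the other end stood Ctsg and Mpo, granule enzymes of neutrophil precursors, with log2 ratios of -2.25 to -1.30 and -2.14 to -1.26. The signalling adaptor Tyrobp, Plac8, Ap3s1, BC035044, Nt5dc2, the lymphoid chromatin organiser Satb1, Ass1 and Flt3 were the other 8 of the 10 lowest. Flt3 stood at 138, 194, 112 and 161 CPM against 227, 304, 214 and 236 CPM. The other HSPC still hold the Dntt+ cells that the rule removed. Against the Procr-negative neighbours Satb1 and Flt3 had no common direction. Their log2 ratios were 0.07, -0.14, 0.12 and -0.15 for Satb1 and -0.25, -0.01, -0.29 and 0.01 for Flt3. Ctsg (-1.23 to -0.64) and Mpo (-0.98 to -0.48) stayed lower there in each mouse. In all 4 mice every one of these 25 genes lay on the same side of the other HSPC, which the ranking itself required.

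**Figure D1:**
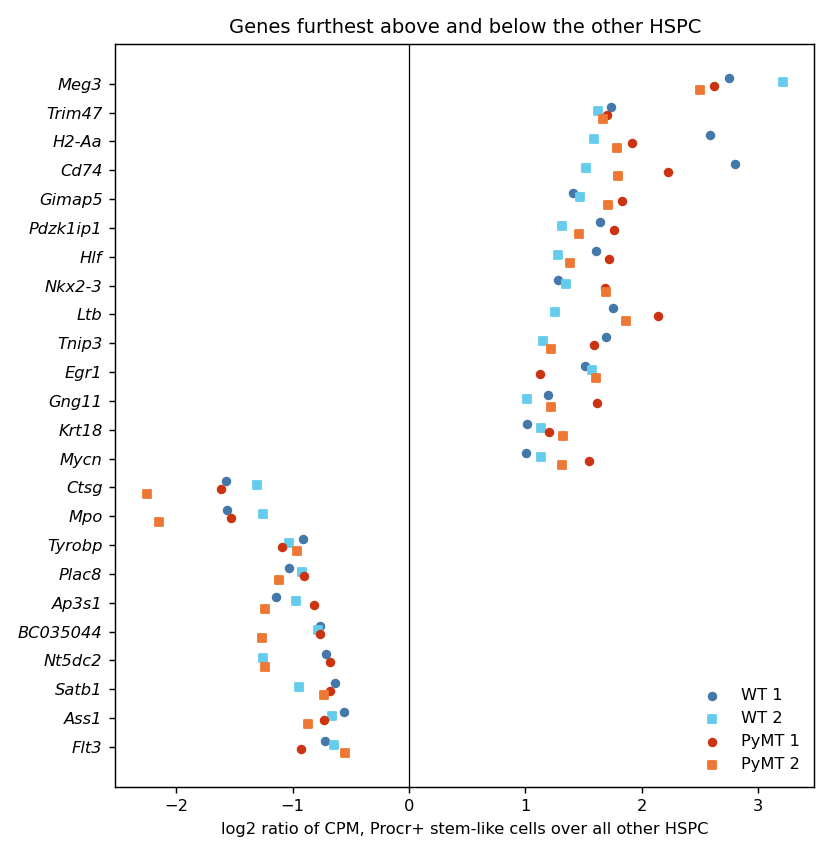
Log2 ratio of CPM, Procr+ stem-like cells over all other HSPC of the same mouse, for 14 of the 15 highest and the 10 lowest ranked genes; each point is 1 mouse. Meg3 lies furthest to the right (2.50 to 3.21), and Ctsg and Mpo furthest to the left.

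Gene lists give the same contrast more widely. Of 3380 genes with at least 50 CPM in the Procr+ stem-like cells of every mouse, 26.3% lay above the other HSPC in all 4 mice and 27.7% below. The lists are counted over their members at that level. Among HSC transcription factors 13 of 15 lay above and 0 below (median log2 ratio 0.40), and among other HSC-enriched genes 14 of 14 lay above (median 0.88). HSC surface and secreted proteins were mixed, with 11 of 17 above and 4 below (median 0.48). Proliferation genes lay below in 26 of 28 cases (median -0.42), nuclear genes of the respiratory chain in 32 of 41 (median -0.18) and unfolded protein response genes in 11 of 15 (median -0.35). MHC genes lay above in 12 of 13 cases (median 0.42) and immediate-early and stress genes in 14 of 20 (median 0.70). Granulocyte-monocyte priming genes lay above in 2 and below in 7 of 13, lymphoid priming genes in 1 and 6 of 11, and megakaryocyte and platelet priming genes in 5 and 4 of 9. Erythroid priming genes lay above in 4 and below in 0 of 6 (median 0.46). Since these cells were chosen by expression, no test is given.

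The authors' cell cycle calls, deposited per cell, placed 84.4%, 87.2%, 84.7% and 84.8% of the Procr+ stem-like cells of WT 1, WT 2, PyMT 1 and PyMT 2 in G1, against 73.1%, 73.0%, 73.5% and 75.5% of the other HSPC. The Procr-negative neighbours lay between, at 78.8%, 75.7%, 79.2% and 80.2%. The populations differ in depth and were not matched for it here. The G1 share of the Procr+ stem-like cells was lower in PyMT mice by 1.04 points on average, within the spread of the WT mice (exact permutation p = 1, two-sided, 2 against 2 mice). It turned to 0.35 points higher without WT 2. S phase calls were at 3.67% and 1.83% in WT and 6.31% and 4.49% in PyMT mice, and G2M calls at 11.9%, 10.98%, 9.01% and 10.7% (exact permutation p = 0.33 for both, the smallest that 2 against 2 mice allow). The G2M difference of -1.61 points became 5.67 points among cells with 3000 to 12000 UMIs, and the G1 difference -9.34 points. The phase calls therefore gave no direction for G2M.

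Procr+ stem-like cells made up a smaller share of HSPC in both PyMT mice. The share was 6.37% in WT 1 (95% Clopper-Pearson interval 5.58 to 7.24) and 7.42% in WT 2 (6.36 to 8.59), and 3.08% in PyMT 1 (2.54 to 3.70) and 3.17% in PyMT 2 (2.73 to 3.67). The intervals cover counting error only. The means were 6.90% ± 0.743 in WT and 3.13% ± 0.0653 in PyMT mice (SD, n = 2), so that the WT share was 2.20 times that of PyMT, a difference of -3.77 points (exact permutation p = 0.33, two-sided, the smallest that 2 against 2 mice allow). The groups did not overlap under any of the other definitions tried. Cells with 2 Procr UMIs or more made up 1.52% and 1.22% of WT and 0.527% and 0.588% of PyMT HSPC, and cells with Mecom and Mllt3 both present 1.32% and 2.22% against 0.500% and 0.446%. The lower share was not particular to cells with a Procr UMI. The Procr-negative neighbours made up 21.8% and 24.6% of WT and 13.2% and 16.4% of PyMT HSPC, also without overlap.

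Depth differed between the libraries, so every cell was also thinned to a fixed number of UMIs. At 2000 UMIs the shares were 2.28% and 2.17% in WT and 0.918% and 1.498% in PyMT mice. At 3000 UMIs they were 2.89% and 3.23% against 1.12% and 1.16%, and at 5000 UMIs 2.23% and 1.97% against 1.29% and 1.15%. The depth of 3000 left out 102, 42, 214 and 1467 cells of WT 1, WT 2, PyMT 1 and PyMT 2, and that of 5000 left out 1041, 640, 1034 and 3353. The WT shares stayed the higher at each depth, by 1.85, 2.68 and 1.72 times.

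**Figure D2:**
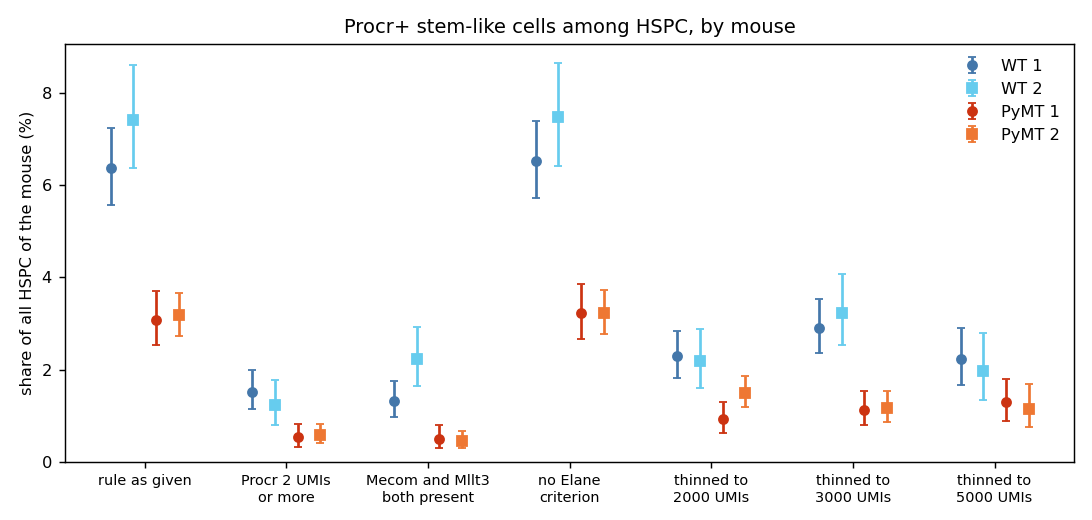
Share of Procr+ stem-like cells among the HSPC of each mouse (%), with 95% Clopper-Pearson intervals, for the rule as given, 3 changed rules and 3 thinning depths. Both PyMT mice lie below both WT mice in each case, from 6.37% and 7.42% against 3.08% and 3.17% under the rule as given.

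The conditions of the rule differed in how far they separated the genotypes. A Procr UMI was found in 13.8% and 14.8% of WT and 11.6% and 10.1% of PyMT HSPC. Mecom or Mllt3 was found in 41.7% and 46.1% of WT and 29.7% and 27.1% of PyMT HSPC. Among cells with a Procr UMI, 46.2% and 50.3% met the other conditions in WT mice and 26.6% and 31.3% in PyMT mice. Of the Gata1+ cells, 3.17% to 3.99% held a Procr UMI. Thinned to 2000 UMIs the share was 0.61% to 2.34%, against 4.78% to 6.70% of all HSPC. Whether the Procr UMIs of Gata1+ cells are background or expression was not tested. Gata1+ cells were deeper than the Procr+ stem-like cells, with a median of 7369, 8464, 6780 and 4915 UMIs. Fewer such cells in the marrow and another make-up of the sorted cells cannot be told apart.

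Within the Procr+ stem-like cells, UMIs were summed per mouse and PyMT was tested against WT. Of 8057 genes tested, 10 rose and 1 fell at an adjusted p under 0.05 (edgeR quasi-likelihood, 0.137% of genes); 755 had an unadjusted p under 0.05 (9.37%). The genes that rose include Socs3, Junb and Cebpb, which cytokine signalling through STAT3 induces, the interferon-inducible membrane protein Ifitm1, the p53 target and cell cycle inhibitor Cdkn1a, and the matrix protein Tgfbi. Serpina3g, Rsrp1, the receptors Lepr and Cd200r4 completed them, and Cdk5rap1 was the gene that fell. The counts grew to 21 higher and 7 lower without WT 1, 117 and 66 without PyMT 1, and 153 and 64 without PyMT 2, and none of the 11 genes changed direction. Levels below are CPM after TMM scaling, in the order WT 1, WT 2, PyMT 1, PyMT 2.

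Socs3, the feedback inhibitor of cytokine receptors that signal through STAT3, stood at 18.4, 9.52, 134 and 64.1 CPM. Both PyMT mice were well above both WT mice, though they differed from each other by more than the WT mice did (log2 change 2.76, SE 0.37, adjusted p = 0.00448). The UMIs were spread over cells: 17 and 8 WT cells held 22 and 9 UMIs, and 45 and 31 PyMT cells held 79 and 39. In the other HSPC it stood at 10.0, 7.54, 59.8 and 51.5 CPM (log2 change 2.65, SE 0.15, adjusted p = 9.94e-05).

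Junb, a subunit of the AP-1 transcription factor, rose from 236 and 285 to 550 and 675 CPM (log2 change 1.24, SE 0.14, adjusted p = 8.00e-04). Cebpb, the C/EBP factor of emergency granulopoiesis, rose from 78.8 and 81.5 to 217 and 172 CPM (1.28, SE 0.17, adjusted p = 0.00307). In cells with 2 Procr UMIs or more the calls of Junb (log2 change 0.75, adjusted p = 0.351) and Cebpb (1.13, adjusted p = 0.191) were lost; that test had 3006 genes. Ifitm1, a marker of murine stem and progenitor cells as well as an interferon-inducible gene, was the most abundant of the genes that rose, at 1570, 1471, 3670 and 3275 CPM (1.19, SE 0.14, adjusted p = 8.00e-04). Its groups were 2.28-fold apart, with means of 1520 ± 70.0 and 3473 ± 279 CPM (SD, n = 2).

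Cdkn1a (p21), which holds cells in G1, rose from 26.8 and 14.8 to 84.7 and 54.2 CPM (log2 change 1.69, SE 0.31, adjusted p = 0.0385). The call was lost without WT 2 (adjusted p = 0.0527). Tgfbi, a secreted protein induced by TGF-beta, rose from 11.7 and 10.6 to 55.9 and 44.4 CPM (2.14, SE 0.32, adjusted p = 0.00746). In the other HSPC Tgfbi stood at 13.7, 6.56, 28.0 and 17.2 CPM and did not pass (1.13, adjusted p = 0.306), but the difference between the populations did not pass either (1.06, SE 0.36, adjusted p = 0.543). With 111 cells per mouse Tgfbi was just over the threshold (adjusted p = 0.0524).

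Serpina3g (Spi2A), an intracellular inhibitor of cathepsins, rose from 170 and 206 to 333.5 and 396 CPM (log2 change 0.96, SE 0.15, adjusted p = 0.00746), a call lost without WT 1 (adjusted p = 0.0936). It is one of a cluster of closely related genes, between which reads can be shared. Rsrp1, which encodes a protein rich in arginine and serine, rose from 577 and 611 to 1398 and 953 CPM (0.99, SE 0.16, adjusted p = 0.0118). Cdk5rap1, an enzyme that modifies mitochondrial tRNA, fell from 45.3 and 59.3 to 11.9 and 6.57 CPM (-2.47, SE 0.38, adjusted p = 0.00746), with 54 and 56 UMIs in the WT and 7 and 4 in the PyMT mice. With 111 cells per mouse it too was just over the threshold (adjusted p = 0.0524).

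The last pair rests on few molecules. Lepr, the leptin receptor and a marker of marrow stroma, had 1 and 2 UMIs in the WT mice and 13 and 12 in the PyMT mice, a ratio of 14.3 per UMI sequenced (exact 95% counting interval 4.37 to 74.2; adjusted p = 0.0385). Of the PyMT UMIs, 11 lay in a single cell of PyMT 1 and 7 in a single cell of PyMT 2, and the rest in 7 other cells, while Col1a2, another stromal marker, had 3, 3, 1 and 3 UMIs. The call was lost without WT 1 (adjusted p = 0.322) or WT 2 (0.295), with 111 cells per mouse (0.112) and without the Elane condition (0.10). Cd200r4, an activating receptor of myeloid cells with close paralogues, lies outside the naming rule because of its low level and is named after its values were seen. It had 1 and 0 UMIs in the WT mice and 13 in each PyMT mouse, spread over 13 and 12 cells, a ratio of 44.7 (counting interval 7.35 to 1833; adjusted p = 0.0122). That call was lost without WT 1 (0.0601) or WT 2 (0.264).

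**Figure D3:**
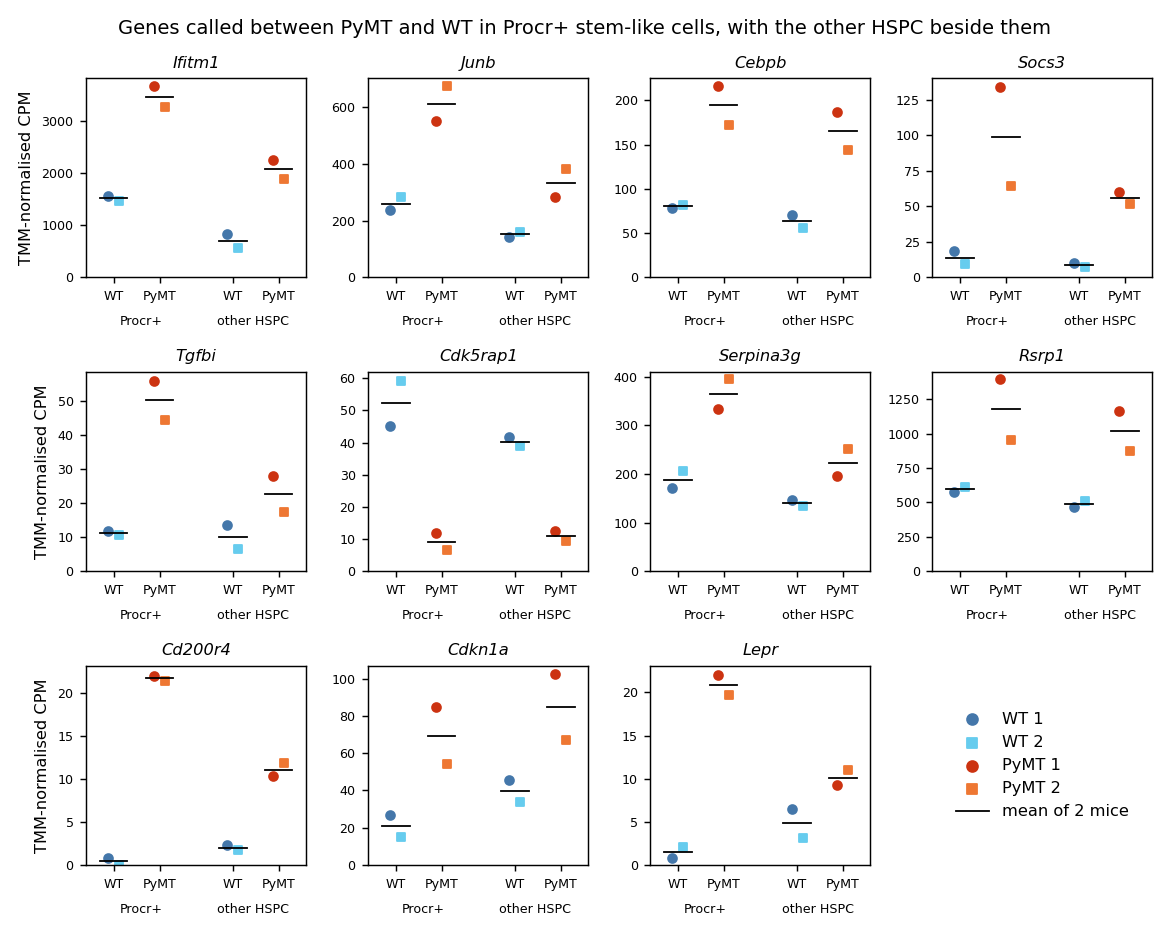
TMM-normalised CPM of the 11 called genes in Procr+ stem-like cells (left pair in each panel) and in all other HSPC (right pair); points are mice, black lines the means of 2 mice, and each vertical axis starts at 0. Socs3 stands at 18.4 and 9.52 CPM in WT and 134 and 64.1 CPM in PyMT Procr+ stem-like cells, and Cdk5rap1 runs the other way.

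Most of these genes were also called in the other HSPC of the same mice, where 82 of 11731 genes rose and 62 fell (1.23%). Ifitm1, Junb, Cebpb, Socs3, Serpina3g, Rsrp1 and Cd200r4 rose there and Cdk5rap1 fell, 8 of the 11. Tgfbi, Cdkn1a (log2 change 1.09, adjusted p = 0.117) and Lepr (1.03, adjusted p = 0.124) did not pass there. For none of these 3 did the difference between the populations pass (adjusted p = 0.543, 0.812 and 0.0886). Both populations come from the same 4 libraries and share whatever differs between those libraries.

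On GRCm38, with GENCODE M21 gene models, Socs3 spans chromosome 11, bases 117966079 to 117970047 (minus strand), and Junb chromosome 8, bases 84974484 to 84978718 (minus). Cebpb spans chromosome 2, bases 167688915 to 167690418 (plus), and Cdk5rap1 the same chromosome, bases 154335380 to 154373010 (minus). Ifitm1 spans chromosome 7, bases 140967221 to 140969825, Cdkn1a chromosome 17, bases 29090976 to 29100727, Tgfbi chromosome 13, bases 56609523 to 56639562, and Serpina3g chromosome 12, bases 104236245 to 104241939, all plus. Each is annotated as protein-coding.

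Since 3 of the 11 genes belong to the list of JAK-STAT targets, the 250 bases before each start that RefSeq gives (GRCm38.p6) were searched for TTCNNNGAA, the palindrome that STAT dimers bind, which reads the same on both strands. It occurs in 7.02% of the 32851 windows in the table. All 11 genes had a window (13 in all), and 2 genes held the motif, Socs3 and Serpina3g. Their windows are shown because these are the called genes with a match, capitals marking it; the Socs3 window is chr11:117969367-117969616 on the minus strand, with the match beginning 154 bases before the RefSeq start, and the Serpina3g window is chr12:104235897-104236146 on the plus strand, with the match beginning 33 bases before it.
Socs3: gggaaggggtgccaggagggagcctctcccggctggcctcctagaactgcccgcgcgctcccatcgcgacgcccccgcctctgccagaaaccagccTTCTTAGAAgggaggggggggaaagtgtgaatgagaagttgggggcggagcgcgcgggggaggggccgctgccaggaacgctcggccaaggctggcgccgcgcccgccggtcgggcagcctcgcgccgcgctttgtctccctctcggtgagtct
Serpina3g: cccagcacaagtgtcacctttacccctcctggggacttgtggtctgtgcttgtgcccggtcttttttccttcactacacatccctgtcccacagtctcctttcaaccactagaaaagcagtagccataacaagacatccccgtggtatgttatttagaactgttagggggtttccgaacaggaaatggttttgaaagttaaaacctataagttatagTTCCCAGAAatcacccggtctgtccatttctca
A match is a description of the letters and shows no binding. The windows of Junb, Cebpb and the other 7 genes did not hold these letters. The RefSeq and GENCODE starts differ: the Socs3 window lies wholly inside the GENCODE gene given above, downstream of its start, and so does at least 1 window of Cdk5rap1, Ifitm1, Cdkn1a, Lepr and Cd200r4.

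Several HSC genes lay just over the threshold. Hlf was at 246 and 272 CPM in WT and 142 and 163 CPM in PyMT mice (log2 change -0.76, SE 0.15, adjusted p = 0.0567). Kit, the receptor for stem cell factor, was at 181 and 187 against 110 and 105 CPM (-0.77, adjusted p = 0.0577), and Angpt1, the Tie2 ligand, at 230 and 243 against 122 and 154 CPM (-0.77, adjusted p = 0.0569). None of the 3 overlapped between the groups. In the other HSPC Hlf, Kit and Angpt1 changed by -0.80, -0.71 and -0.87 (edgeR adjusted p = 0.123, 0.0240 and 0.0561). The difference between the populations did not pass for any of them (0.04, -0.06 and 0.09). In the Procr+ stem-like cells all 3 passed edgeR's test without TMM scaling (adjusted p = 0.0353, 0.0379 and 0.0379) and without the filter on low counts (0.00351, 0.00974 and 0.00422). None passed with 2 Procr UMIs or more (0.421, 0.903 and 0.614), with 111 cells per mouse (0.056, 0.23 and 0.056) or without the Elane condition (0.0555, 0.0662 and 0.0662). Over all settings, with 1 mouse left out among them, the log2 change ran from -0.86 to -0.67 for Hlf. For Kit it ran from -0.83 to -0.34 and for Angpt1 from -0.95 to -0.61. Hlf and Angpt1 also passed in G1 cells (-0.74 and -0.80, adjusted p = 0.0238 and 0.0174), and Kit did not (-0.62, adjusted p = 0.18). DESeq2 did not call Hlf (adjusted p = 0.114) and gave Kit and Angpt1 no adjusted p. Meg3, the leading gene of the cells, had values of 105, 66.7, 149 and 117 CPM (0.61, SE 0.21, adjusted p = 0.387), and passed without PyMT 2 (0.77, adjusted p = 0.0158).

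Across the whole table, 19.9% of tested genes had PyMT values above both WT mice without overlap and 20.3% had them below, so a group that does not overlap is common with 2 mice each. HSC transcription factors were at a median log2 change of -0.28 over 22 tested members, against -0.0033 over all genes, with 9 below and 2 above without overlap. Meis1 was among them, at 282.5 and 386 against 185 and 237 CPM (-0.66, adjusted p = 0.188). So were Gfi1b (-1.10, adjusted p = 0.212), Hoxa9 (-0.48, adjusted p = 0.387) and Gata2 (-0.35, adjusted p = 0.495). No member of this list passed edgeR's test, 7 had an unadjusted p under 0.05, and DESeq2 called 0 of the 6 to which it gave an adjusted p. Meis1 changed by -0.88 without WT 1, -0.43 without WT 2, -0.49 without PyMT 1 and -0.84 without PyMT 2. It passed edgeR's test without the filter on low counts (adjusted p = 0.0223). It did not pass with 2 Procr UMIs or more (0.468), with the same number of cells from each mouse (0.102) or in G1 cells (0.0644). HSC surface and secreted proteins were at -0.11 (8 of 26 below and 2 above without overlap). None passed edgeR's test, 5 had an unadjusted p under 0.05, and DESeq2 called 0 of the 8 to which it gave an adjusted p. Among other HSC-enriched genes Ifitm1 rose and the median of 24 was -0.04. In the other HSPC the medians of these lists, in the order given, were -0.21, -0.20 and -0.17. Of 24 HSC transcription factors tested there, 14 lay below and 0 above without overlap. Meis1 changed there by -0.70 (edgeR adjusted p = 0.0419), and its difference between the populations was 0.06.

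JAK-STAT targets and SOCS genes held 3 of the 10 genes that rose, Socs3, Junb and Cebpb, of 23 tested (median 0.23, 11 above and 4 below without overlap). The kinases Pim1, at 540, 482.5, 723 and 963 CPM, and Pim2, at 32.7, 46.6, 83.0 and 95.3 CPM, were next by edgeR (adjusted p = 0.0569 and 0.0567). DESeq2 called Pim1 (0.73, adjusted p = 0.0208) and Junb, the only 2 genes of this list to which it gave an adjusted p. In G1 cells Pim1 and Pim2 both passed edgeR's test (0.75 and 1.09, adjusted p = 0.0102 and 0.0238). Both also passed it without the filter on low counts (adjusted p = 0.00136 and 0.00184). With 2 Procr UMIs or more they stood at 0.40 and 0.49 and did not pass (adjusted p = 0.65 and 0.909). Neither passed without TMM scaling (0.0843 and 0.066) or with the same number of cells from each mouse (0.0897 and 0.122). With each mouse left out in turn, the log2 change ran from 0.50 to 0.91 for Pim1 and from 0.93 to 1.44 for Pim2. Stat5b lay the other way, at 52.0, 59.3, 30.5 and 29.6 CPM (-0.88, adjusted p = 0.301). Of 47 interferon response genes Ifitm1 alone rose, by edgeR and by DESeq2, which gave 10 of them an adjusted p (median 0.12, 15 above and 8 below). Its family members Ifitm3 (0.36, adjusted p = 0.388) and Ifitm2 (0.34, adjusted p = 0.423), did not pass. Of 30 immediate-early and stress genes edgeR called Junb alone (median 0.18), with Jund at 601, 619, 894 and 1018 CPM (0.65, adjusted p = 0.0567), and DESeq2 called both Junb and Jund (adjusted p = 0.0208 for Jund). In the other HSPC the medians of these 3 lists, in the order given, were 0.45, 0.27 and 0.23. Of 25 JAK-STAT targets and SOCS genes tested there, edgeR called 7 higher, with 15 above and 4 below without overlap. Pim1 passed there (0.78, edgeR adjusted p = 0.016) and Pim2 did not (0.87, adjusted p = 0.275).

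MHC genes were at a median of -0.19 in PyMT against WT, with 9 of 15 below and 1 above without overlap. H2-Q7 was at 258, 321, 193 and 161 CPM (-0.70, adjusted p = 0.0989) and H2-T23 at 421, 494, 291 and 333 CPM (-0.55, adjusted p = 0.179). Class I genes of this region are near-identical, so the split of reads between them is uncertain. None of the 15 passed edgeR's test, 3 had an unadjusted p under 0.05, and DESeq2 called 0 of the 8 to which it gave an adjusted p. Respiratory chain genes were at a median of 0.21, with 28 of 41 above and 0 below without overlap, and 0 passed edgeR's test (14 with an unadjusted p under 0.05, 0 of the 40 given an adjusted p by DESeq2). Unfolded protein response genes were at 0.29, with 12 of 22 above and 1 below, and 0 passed (6 with an unadjusted p under 0.05, 0 of the 7 given an adjusted p by DESeq2). Their chaperone Hspa5 was at 379, 377, 804 and 480 CPM and their transcription factor Xbp1 at 93.9, 126, 185 and 207 CPM (0.85, adjusted p = 0.0569). In the other HSPC the MHC, respiratory chain and unfolded protein response lists were at medians of -0.12, 0.29 and 0.46. There edgeR called 1 MHC gene lower, and 2 respiratory chain and 2 unfolded protein response genes higher.

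Of 39 proliferation genes 13 lay below and 5 above without overlap (median 0.08). None passed edgeR's test, 11 had an unadjusted p under 0.05, and DESeq2 called 0 of the 13 to which it gave an adjusted p. Granulocyte-monocyte priming genes were at 0.24 (6 of 17 above, 1 below), megakaryocyte and platelet priming genes at -0.26 (3 of 16 above, 6 below) and lymphoid priming genes at 0.02 (5 of 14 above, 4 below). None of these 3 lists had a member that passed edgeR's test (2, 6 and 4 with an unadjusted p under 0.05) or DESeq2's, which gave 10, 3 and 3 members an adjusted p. In the other HSPC the medians of the same 3 lists were 0.46, -0.71 and -0.10.

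**Figure D4:**
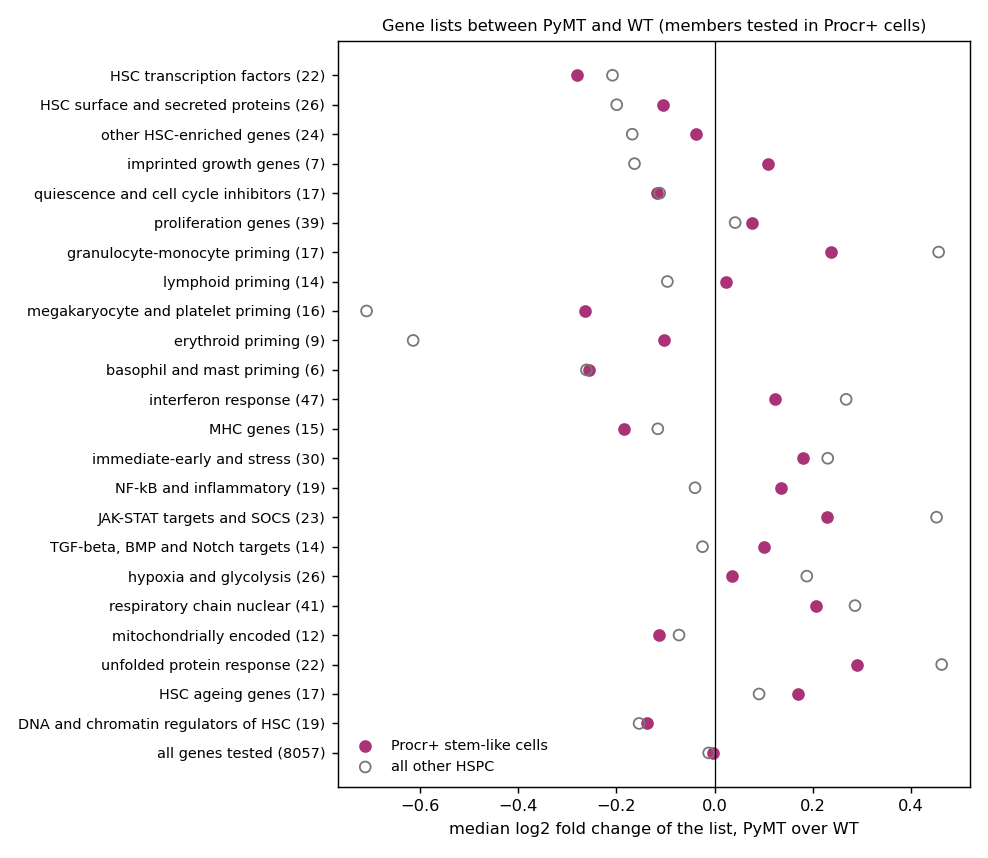
Median log2 fold change of each gene list, PyMT over WT, in Procr+ stem-like cells (filled) and in all other HSPC (open), with the number of members tested in the former. Megakaryocyte and platelet priming genes lie at -0.26 in the Procr+ stem-like cells and -0.71 in the other HSPC, and all genes tested near 0 in both.

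The difference between the populations was itself tested over 11348 genes, and 9 passed (0.0793%), 4 with the higher PyMT change in the Procr+ stem-like cells and 5 with the lower. Ly6a (Sca-1), the surface antigen by which mouse HSPC are commonly gated, stood at 180, 139, 156 and 168 CPM in the Procr+ stem-like cells (log2 change 0.01, SE 0.17, adjusted p = 0.992). In the other HSPC it rose from 42.5 and 39.4 to 84.7 and 72.9 CPM (0.94, SE 0.11, adjusted p = 0.00885). The difference was -0.92 (SE 0.15, adjusted p = 3.01e-06), and -0.91 (adjusted p = 2.20e-04) against the Procr-negative neighbours alone, an alternative chosen after seeing the data. It was lost without WT 1 (-0.72, adjusted p = 0.132) and under DESeq2 (-0.90, adjusted p = 0.789). Ly6a was found in 39.9% to 51.4% of the Procr+ stem-like cells of a mouse, in 22.04% and 23.5% of the other HSPC of the WT mice, and in 38.2% and 26.0% of those of PyMT 1 and PyMT 2.

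Ifitm1 rose in both populations, but by less in the Procr+ stem-like cells (1.19 against 1.55; difference -0.36, SE 0.07, adjusted p = 3.05e-04), and this difference was lost against the Procr-negative neighbours (-0.23, adjusted p = 0.406) and without WT 2 (-0.13, adjusted p = 1). The lipoprotein Apoe was at 721, 613, 951.5 and 683 CPM in the Procr+ stem-like cells and 839, 676, 703 and 606 CPM in the others (difference 0.51, SE 0.08, adjusted p = 1.95e-06), and against the Procr-negative neighbours the difference was -0.06 (adjusted p = 0.9996). Without PyMT 1 it was 0.35 (adjusted p = 0.504). The granule proteases Prtn3 (-0.39, adjusted p = 6.03e-05) and Ctsg (-0.43, adjusted p = 0.0216), Actb (-0.24, adjusted p = 0.0249), Wfdc17 (0.51, adjusted p = 0.0359) and Ier2 (0.37, adjusted p = 0.0384) also passed. Each of these 5 was lost against the Procr-negative neighbours, beside the uneven shares of Elane-high cells given above, whose part was not tested. Each was also lost without WT 2 (-0.18, -0.31, -0.16, 0.34 and 0.41 in the order given). Prtn3 was lost without PyMT 1 too, Ctsg (-0.21) and Wfdc17 (0.25) without PyMT 2, Actb without WT 1 (-0.27) or PyMT 1 (-0.13), and Ier2 without any 1 of the 4 mice. For Ly6d, a marker of lymphoid progenitors, 19 of the 20 UMIs in the Procr+ stem-like cells of the PyMT mice lay in 1 cell of PyMT 2, so its difference of 4.84 (adjusted p = 0.00108) is that of a single cell; without PyMT 2 it was 1.48 (adjusted p = 0.962).

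**Figure D5:**
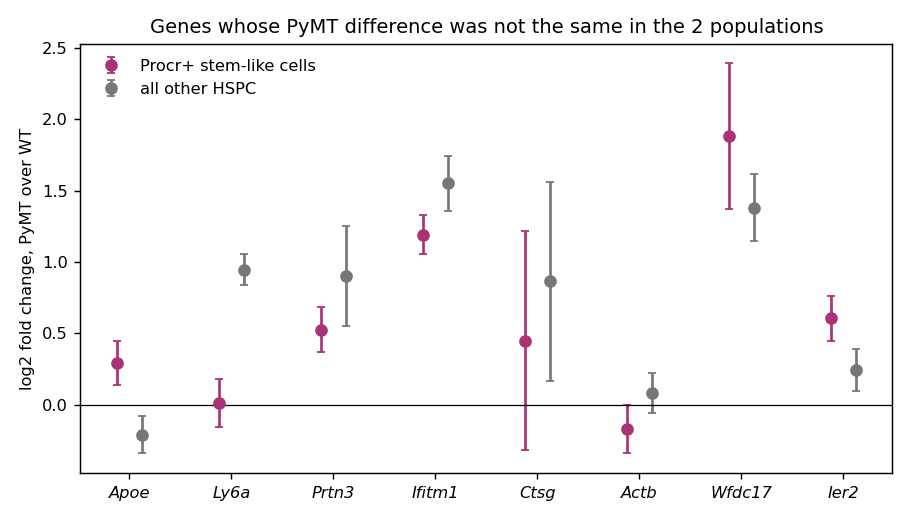
Log2 fold change of PyMT over WT with its standard error in Procr+ stem-like cells and in all other HSPC, for 8 of the 9 genes whose difference between the populations passed (Ly6d, borne by 1 cell, is left out). Ly6a lies at 0.01 in the former and 0.94 in the latter.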

How the data were processed

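Single-cell 3′ RNA libraries of HSPC from 2 WT and 2 PyMT mice were used; the bulk and stromal files were not. Per the submitters' processing notes, Cell Ranger 6.0.0 and the build mm10 were used. The deposited HSPC table holds raw UMI counts of 11992 genes per cell, and the authors' metadata give the mouse, genotype, cell cycle phase and the percent of mitochondrial UMIs, at most 4.50%, so cells had been filtered before deposit. No doublet caller was run.

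Cells were chosen by the rule, summed per mouse and tested with edgeR 4.0.16 (R 4.3.3; TMM; filterByExpr; quasi-likelihood with robust dispersions; p adjusted over all genes by Benjamini-Hochberg; threshold 0.05). The difference between populations was a class-by-genotype term with mouse as a term. DESeq2 1.42.0 was an alternative. Ratios over other HSPC used plain CPM plus 1. With 2 mice a group, p-values rest on little replication. In simulated counts of Procr+ stem-like cells, 11.5% of changes of 1.5-fold, 77% of 2-fold and 99% of 4-fold were recovered (8050, 8050 and 8020 genes). For the difference between populations, 2%, 55.5% and 99% were recovered at the same folds. The simulation gave every gene the same fixed dispersion and changed only genes above a set UMI total. The recovered shares therefore cover neither the spread between these mice nor genes with few UMIs, such as Lepr and Cd200r4.

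Named genes were the 12 with the smallest p per direction among called genes with no overlap and a mean of at least 20 CPM, called list members, the 5 per direction for the difference, and the 15 highest and 10 lowest against other HSPC. Rule genes, mitochondrial genes and unnamed gene models were left out, and 1 of the 15 is not reported here. The cells, lists and tests were chosen with earlier results of these data known.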

Additional observations from a re-analysis of the deposited data

Results flagged for a closer look

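The PyMT change differed between Procr+ stem-like cells and all other HSPC, by the test of that difference, for 9 genes. On the log2 scale, Procr+ stem-like cells minus other HSPC, the difference was -0.92 for Ly6a, 0.51 for Apoe, -0.39 for Prtn3, -0.36 for Ifitm1, 4.84 for Ly6d, -0.43 for Ctsg, -0.24 for Actb, 0.51 for Wfdc17 and 0.37 for Ier2. Against the Procr-negative neighbours 8 of the 9 were tested, all but Ly6d, and of those Ly6a alone passed. Each of the 9 lost its call under at least 1 alternative, as given with the effects of the processing.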

How the results depend on the processing

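No paired analysis was possible because the labels give the 4 mice no shared replicate numbers. The share of Procr+ stem-like cells was lower in PyMT mice under every alternative run, by -4.29 to -3.24 points with 1 mouse left out and -3.77 to -0.81 points under the other rules and depths; 2000 UMIs was a depth chosen after seeing the data. The count of genes in Procr+ stem-like cells depended more on the setting. Against 10 higher and 1 lower, there were 32 and 12 without a filter on low counts, 28 and 8 in G1 cells, 6 and 0 with 2 Procr UMIs or more, 10 and 5 without TMM, 10 and 2 without the Elane condition, 9 and 0 with 111 cells per mouse, and 10 and 0 with DESeq2, which gave no adjusted p to 7029 genes and shared 4 of its calls with edgeR. With 1 mouse left out, 13 to 153 genes were higher and 1 to 66 lower, the most without PyMT 2 and without PyMT 1; the lone mouse of a genotype is then assumed to vary like the other 2. In the other HSPC the same step gave 154 to 854 higher and 94 to 553 lower, against 82 and 62. None of the 11 called genes changed direction in any setting in which it was tested. Without the cell richest in the gene in each mouse, the log2 ratio of mean CPM plus 1 went from 3.09 to 2.12 for Lepr, a step chosen after seeing the data.

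For the difference between populations, 4 genes higher and 5 lower became 0 and 0 with DESeq2 (92 genes with an unadjusted p under 0.05), 5 and 3 without TMM, and 0 and 4 against the Procr-negative neighbours, where Apoe turned to -0.060. With 1 mouse left out 3 to 7 were higher and 3 to 6 lower. The authors' G1 calls turned from -1.04 to between -2.44 and 0.35 points with 1 mouse left out, and the G2M calls from -1.61 to 5.67 points within 3000 to 12000 UMIs. The causes of these changes were not tested. Depth limits the genes seen: PyMT 1 gave 615942 UMIs in Procr+ stem-like cells, and genes with 1 to 3 UMIs in a genotype carry wide counting intervals.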
